A study of Danio rerio with 6 samples.

Results

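The genes described here are the acsl long-chain acyl-CoA synthetases and the acot11 acyl-CoA thioesterases of the zebrafish liver, measured in wild-type fish and in fish labelled as scd knockouts. They are 10 of the 30954 named genes in the deposited count table: acot11a, acot11b, acsl1a, acsl1b, acsl2, acsl3a, acsl3b, acsl4a, acsl4b and acsl5. They were selected by gene symbol, and the grouping was chosen with results of the comparison below already known, in which acot11b was among the genes called. The values of that comparison are therefore a description, and no p-value is given for these 10 genes. One group, WT, holds 3 libraries of total RNA from wild-type livers. The other, called mutant here, holds 3 libraries from livers of fish whose scd gene was knocked out with CRISPR-Cas9. All fish were kept in water at 28 °C. The edited allele, whether it was carried on one chromosome or both, strain, sex, age, feeding, and the number of fish behind a library are not stated, so the spread between libraries may be technical in part.

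Acyl-CoA synthetases of the ACSL family use ATP to join a long-chain fatty acid to coenzyme A, which is the step that commits it to storage, membrane synthesis, desaturation or oxidation. Thioesterases split the acyl-CoA and release the free fatty acid. Stearoyl-CoA desaturase, the product of scd, acts on the saturated acyl-CoAs that the synthetases make. ACOT11, also known as THEM1, joins thioesterase domains to a lipid-binding START domain, and in mice it is best known from brown fat.

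The table gives whole-number read counts per gene, and levels below are counts per 1e6 scaled by edgeR's TMM factors (CPM). Named counts per library lay between 22525300 and 25853000. A gene is called where edgeR's quasi-likelihood test gives a p under 0.05 after Benjamini-Hochberg adjustment over all tested genes. Such p-values set the difference between the groups against the spread between these libraries. Several libraries stood apart from the rest of their group. Vitellogenin, the yolk precursor made by the liver of egg-laying females, took 44.1% to 57.3% of named counts in 5 libraries and 0.0433% in mutant replicate 3, whose scaling factor of 2.97 was the highest, against 0.632 to 1.07 elsewhere. The 7 erythrocyte markers in the table summed to 2252 CPM in that library and to 172 to 348 CPM in the others. WT replicates 1 and 2 and mutant replicate 1 held transcripts of oocytes, whose 13 markers had sums of 180.3, 211 and 295 CPM there and of at most 2.64 CPM elsewhere. All 14 hepatocyte markers in the table were present in both groups, with sums of 67808 to 78096 CPM in WT and of 41613 to 94170 in mutant livers. Exocrine pancreas markers summed to 161 to 2021 CPM in WT, against 356 to 577 in mutant livers, and macrophage and neutrophil markers to 18.7 to 44.9 CPM, against 12.5 to 64.6. The scd transcript itself stood at 30.3, 18.1 and 431 CPM in WT, against 693, 111 and 56.7 in mutant livers, so its level does not separate the labels. The position of the edit is not stated, so the amount of transcript is no check of the genotype.

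The thioesterase acot11b was near the limit of detection in WT liver and present in every mutant liver. Its counts were 4, 6 and 2 over the WT replicates, in order, against 69, 91 and 396 over the mutant ones. In CPM these were 0.192, 0.314 and 0.112 in WT (0.206 ± 0.102, SD, n = 3) and 4.23, 3.74 and 5.65 in mutant livers (4.54 ± 0.989, n = 3). The lowest mutant library lay far above the highest WT library, and the 3 mutant libraries differed among themselves by only 1.51-fold. The log2 fold change of mutant over WT was 4.43 ± 0.49 (SE), which is 21.5-fold. A bulk library cannot tell apart a change in the number of cells of a type and a change in RNA per cell.

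This separation did not rest on one scaling. As counts per 1e6 named counts, with no factor, acot11b stood at 0.178, 0.237 and 0.0806 in WT and at 2.67, 3.98 and 16.6 in mutant libraries, again without overlap. The single WT value with the fewest reads rests on 2 counts, so the size of the fold is uncertain. Without mutant replicate 3 the log2 fold change was 4.21 ± 0.50, and the gene was then no longer called. Of 7 marker lists for cell types that a liver sample could hold, the adipocyte list was the one whose summed level did not overlap between the groups. It summed to 8.88 to 20.6 CPM in WT, against 20.7 to 28.3 in mutant livers. The nearest libraries were almost equal, WT replicate 2 at 20.59 CPM and mutant replicate 2 at 20.70 CPM. These sums were not compared per 1e6 named counts, and 27.8% of all tested genes had groups without overlap. Its defining adiponectin and leptin markers adipoqa, adipoqb and lepb had no count in any library. Only cfd and plin1 of its 5 genes in the table were present. Most of the sum was cfd, at 9.27, 20.6 and 8.88 CPM in WT, against 21.8, 19.8 and 28.0 in mutant livers, with overlap. The other, plin1, a lipid droplet coat protein of adipocytes, was at 0 in all WT libraries. It was at 1.59, 0.905 and 0.242 CPM in mutant replicates 1 to 3, so its lowest mutant value was in the library with the most acot11b. The part of adipocyte transcripts in the acot11b values was not tested.

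The paralogue acot11a did not share this pattern. Its level was 24.4, 27.4 and 15.5 CPM in WT, against 21.6, 8.56 and 5.65 in mutant livers. The groups overlapped, because mutant replicate 1 lay above WT replicate 3. The log2 fold change was -0.92 ± 0.52, and -0.59 ± 0.45 without mutant replicate 3. Without mutant replicate 1 it was -1.68 ± 0.39, and the gene was called in none of these fits. The 3 libraries with oocyte transcripts, WT replicates 1 and 2 and mutant replicate 1, were also the 3 with the most acot11a on this scale, though not per 1e6 named counts, and the part of those transcripts in this order was not tested.

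Set against each other within a library, the acot11 pair gives a measure that needs no scaling factor. Of the reads assigned to either gene, acot11b held 0.780% (95% Wilson interval 0.304 to 1.99), 1.13% (0.521 to 2.45) and 0.719% (0.198 to 2.58) over the WT replicates, in order. Over the mutant replicates it held 16.4% (13.1 to 20.2), 30.4% (25.5 to 35.9) and 50.0% (46.5 to 53.5). In mutant replicate 3 both genes had 396 counts. The summed acot11 level did not separate the groups, at 24.6, 27.7 and 15.6 CPM in WT, against 25.9, 12.3 and 11.3 in mutant livers. The intervals cover counting error only, not the spread between libraries. They treat reads as independent molecules, which was not checked, so even the counting error may be larger. The shares also depend on transcript lengths and on how reads matching both paralogues were counted.

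**Figure D1:**
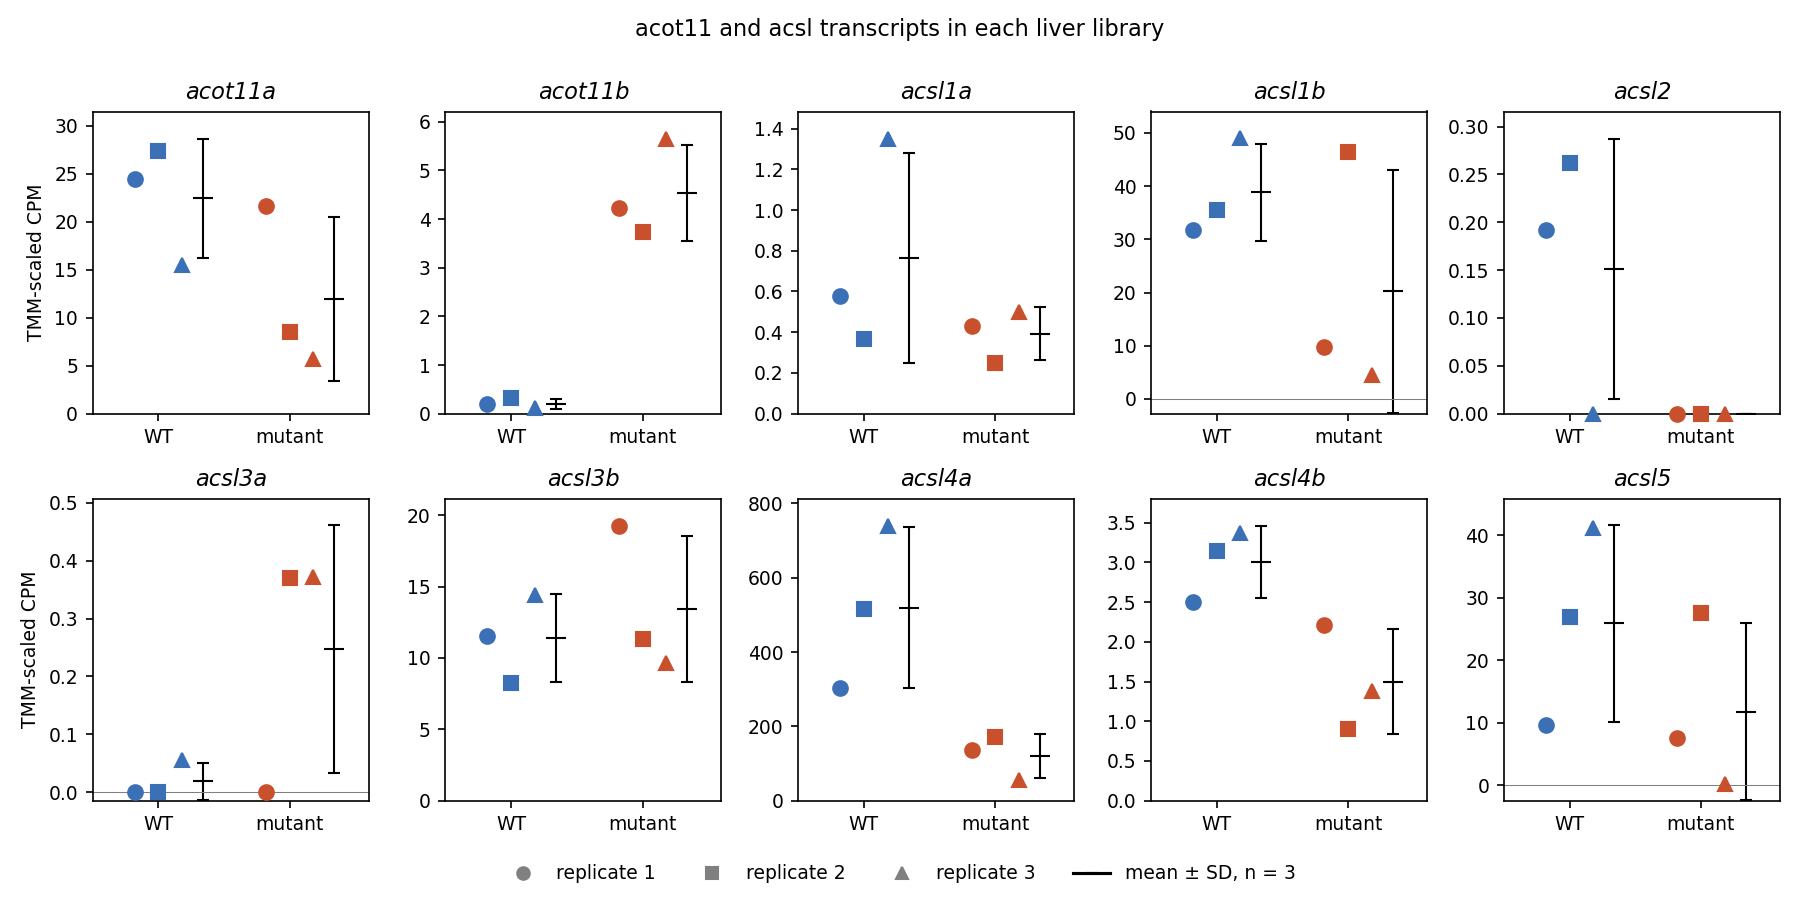
Level of each acot11 and acsl transcript (TMM-scaled CPM, a separate linear axis per gene) in the 3 WT libraries (blue) and the 3 mutant libraries (orange), with marker shape for the replicate number and the mean ± SD in black. The groups are apart for acot11b, acsl4a and acsl4b, and mutant replicate 2 sits among the WT libraries for acsl1b and acsl5.

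The synthetase acsl4a gave most of the acsl reads in every library, and its level was lower in all mutant livers than in any WT liver. In mammals ACSL4 prefers arachidonic acid and related polyunsaturated fatty acids. The level was 304, 515 and 739 CPM over the WT replicates (520 ± 218, SD, n = 3), against 135, 172 and 56.2 over the mutant ones (121 ± 59.25, n = 3). WT libraries spread over a 2.43-fold range and mutant ones over 3.06-fold, and the gap between the groups, from 172 to 304 CPM, was narrower than either. The log2 fold change was -2.10 ± 0.56, which is 4.29-fold lower, and it did not pass the threshold of an adjusted p under 0.05. Per 1e6 named counts the values were 281, 388 and 530 in WT and 85.3, 183 and 165.6 in mutant libraries, also without overlap. Without mutant replicate 3 the log2 fold change was -1.77 ± 0.47.

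Its paralogue acsl4b lay in the same direction at a low level, with 2.50, 3.14 and 3.37 CPM in WT, against 2.21, 0.905 and 1.38 in mutant livers (log2 fold change -1.01 ± 0.43). These groups were apart by a small margin that depended on scaling. Per 1e6 named counts mutant replicate 3 had the highest value, 4.08, against 2.31 to 2.42 in WT.

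The synthetases acsl1b and acsl5 varied more within the mutant group than between the groups. In mice Acsl1 is a major synthetase of liver, heart and fat, and Acsl5 is abundant in intestine and liver. The level of acsl1b was 31.8, 35.6 and 49.1 CPM in WT, against 9.68, 46.4 and 4.54 in mutant livers, a 10.2-fold range among the latter. That of acsl5 was 9.65, 26.9 and 41.2 CPM in WT, against 7.60, 27.5 and 0.257 in mutant livers, a 107-fold range. Mutant replicate 2 lay within the WT range of both genes, mutant replicate 1 stood below WT for both, and mutant replicate 3 had the least.

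The log2 fold changes carried large errors, -0.94 ± 0.81 for acsl1b and -1.14 ± 1.37 for acsl5. Without mutant replicate 3, the library lacking vitellogenin, they were -0.48 ± 0.66 and -0.57 ± 0.81. Without mutant replicate 2, the library within the WT range, they were -2.47 ± 0.45 and -2.78 ± 1.47, and neither gene was called in either case. The 2 genes placed all 6 libraries in the same order, from WT replicate 3 through mutant replicate 2, WT replicates 2 and 1 and mutant replicate 1 to mutant replicate 3. That shared order held under TMM and not per 1e6 named counts, where mutant replicate 2 was highest for acsl1b with 49.4 and mutant replicate 1 lowest with 6.11. For acsl5 the low value of mutant replicate 3 remained on that scale, at 0.757 against 4.80 to 29.5 in the other libraries. The 9 enterocyte markers summed to 684 to 786 CPM in WT and to 914, 494 and 297 CPM in mutant replicates 1 to 3. In mutant replicate 3, 201 CPM of this sum came from apoa4b.1, an apolipoprotein gene, while apoa4a, at 18.3 CPM, and anpepb, at 5.18 CPM, were highest there. The part of these transcripts in the acsl5 values was not tested.

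The paralogue acsl1a was scarce in all libraries, at 0.576, 0.367 and 1.35 CPM in WT, against 0.429, 0.247 and 0.499 in mutant livers. The groups overlapped and the log2 fold change was -0.93 ± 0.66. With total counts it was 0.18, which is below the median of all genes on that scale, 0.98. Without WT replicate 3, which had the highest level, it was -0.27 ± 0.70.

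The synthetase acsl3b, whose mammalian counterpart ACSL3 sits on the endoplasmic reticulum and on growing lipid droplets, had the smallest log2 fold change of the family, 0.23 ± 0.36. Its level was 11.5, 8.23 and 14.4 CPM in WT, against 19.2, 11.4 and 9.64 in mutant livers, with overlap. Per 1e6 named counts it was 6.20 to 10.7 in WT and 12.1 to 28.4 in mutant libraries, without overlap, but its log2 fold change there, 0.96, was close to the median of all genes, 0.98. Without mutant replicate 1, which had the highest CPM, the log2 fold change was -0.14.

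The remaining pair, acsl2 and acsl3a, did not pass the filter on low counts. Reads of acsl2 were found in WT replicates 1 and 2, with 4 and 5 counts, and in no other library. Summed over libraries against a floor of 3 mutant counts, this gives a bound of at least 5.76-fold lower in mutant livers on the TMM scale. It is set by that floor and is not a measured fold. The bound was 2.11 without mutant replicate 3, whose scaling factor was highest, and 2.99 per named counts. These bounds leave out the spread between libraries. WT replicate 3 had 0 counts as well, so the groups overlapped. Both libraries with reads carried oocyte transcripts, as did mutant replicate 1, which had none. Reads of acsl3a numbered 0, 0 and 1 in WT and 0, 9 and 26 in mutant replicates 1 to 3. The ratio of the summed reads was 18.2 on the TMM scale, with an exact 95% counting interval of 3.07 to 741. Such an interval covers counting error of pooled reads only, not the spread between libraries, and the groups overlapped. The ratio was 12.8 (1.77 to 560.4) without mutant replicate 3 and 35.1 (5.90 to 1425) per named counts. Mutant replicate 1 had no read of this gene, so the mutant reads came from replicates 2 and 3 only. With no filter beyond 1 count, acsl2 and acsl3a were tested and neither was called.

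Summed over the family, acsl transcripts stood at 361, 590 and 849 CPM in WT (599.7 ± 244.2, SD, n = 3) and at 174, 259 and 72.9 CPM in mutant livers (169 ± 93.2, n = 3), without overlap. This sum follows acsl4a, which made up most of it. Of all acsl counts, acsl4a held 84.4%, 87.4% and 87.1% in WT and 77.5%, 66.5% and 77.1% in mutant replicates 1 to 3. The lowest WT share lay above the highest mutant share, and the mutant shares themselves spread more widely (73.7% ± 6.26, SD, n = 3) than those in WT (86.3% ± 1.64, n = 3). The widest 95% Wilson interval of a single share was 76.0 to 79.0, in mutant replicate 1.

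The share of acsl3b lay above every WT share in each mutant liver, while its size and the other genes with a larger share differed between them. In mutant replicates 1 and 3 acsl3b held 11.04% (9.94 to 12.2) and 13.2% (12.3 to 14.2) of acsl counts, against 1.39% to 3.19% in WT. In mutant replicate 2 acsl3b held 4.39% (3.91 to 4.92). There acsl1b held 17.9% (17.0 to 18.9) and acsl5 held 10.6% (9.89 to 11.4). In WT those 2 genes held 5.79% to 8.83% and 2.68% to 4.85%. In mutant replicate 3 acsl5 was down to 0.352% (0.223 to 0.556). The shares of a library add up to the whole, so a lower share of acsl4a raises the others without any rise in their level. In mutant replicate 2 acsl3b, acsl1b and acsl5, at 11.4, 46.4 and 27.5 CPM, lay within their WT ranges. The CPM of acsl3b was above its WT range in mutant replicate 1 only. These shares need no scaling factor, but they compare reads, not molecules, since transcript lengths were not used.

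**Figure D2:**
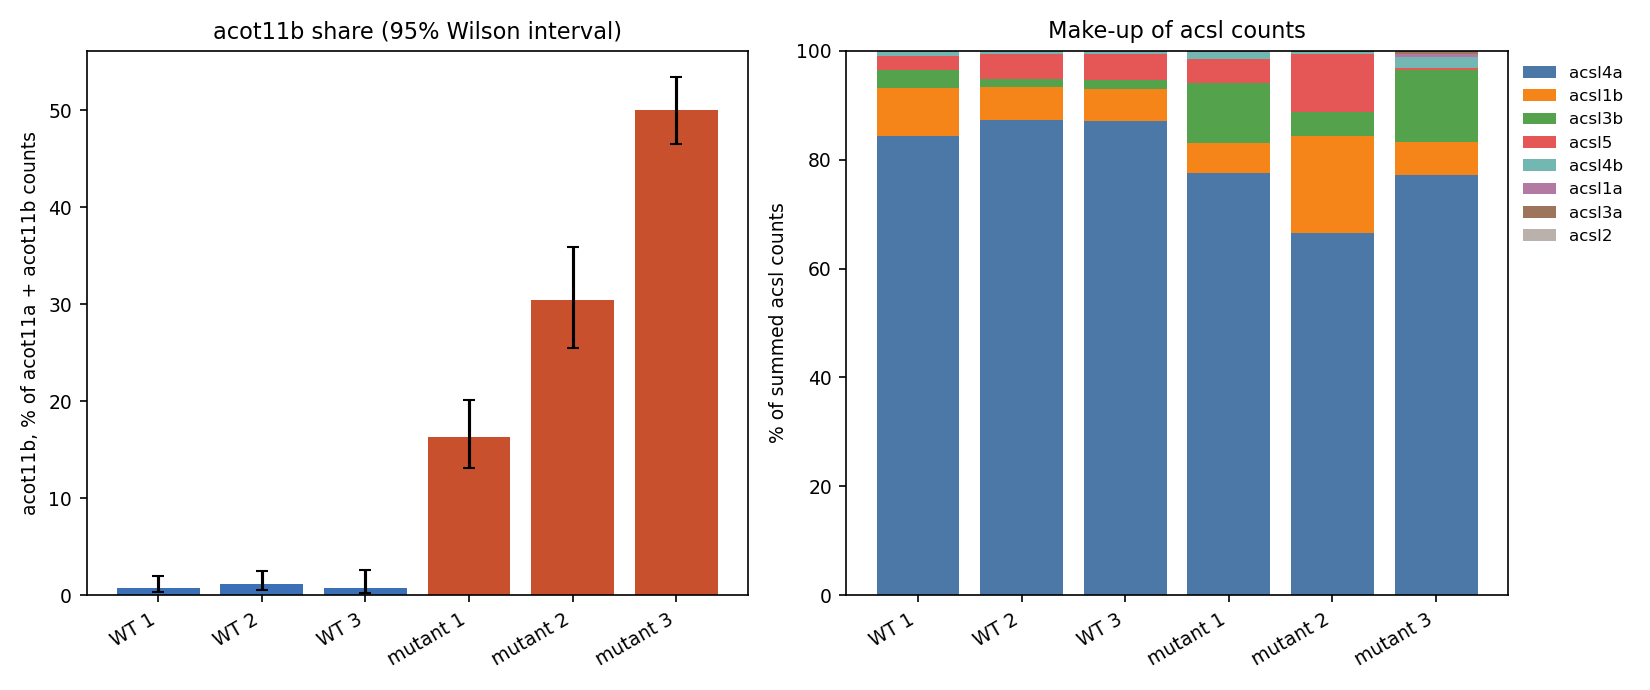
Left, acot11b as a percentage of the reads of acot11a and acot11b together, with 95% Wilson intervals that cover counting error only: 0.719% to 1.13% in WT libraries (blue) and 16.4% to 50.0% in mutant libraries (orange). Right, the percentage of all acsl reads held by each acsl gene in each library, in which acsl4a holds 84.4% to 87.4% in WT and 66.5% to 77.5% in mutant libraries.

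Across the whole table, edgeR called 31 of 12889 tested genes, 0.241%, with 15 higher and 16 lower in mutant livers. Of the 8 family members tested, 1 was called, acot11b, higher. Since this comparison was known when the members were chosen, nothing is read from that count. WT and mutant CPM were apart, without overlap, for acot11b, acsl4a and acsl4b, 3 of the 8, beside 27.8% of all tested genes. The median log2 fold change of the 8 was -0.94, with 2 positive and 6 negative values, beside 0.04 over all tested genes.

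The call of acot11b was kept without mutant replicate 1. It was lost without any 1 of WT replicates 1, 2 and 3 or of mutant replicates 2 and 3, while the log2 fold change stayed between 4.13 and 4.83 in these fits. Without mutant replicate 3, 21 of 13027 genes were called, 0.161%, none of them a family member. When libraries were scaled by total counts instead, all genes together had a median of 0.98, and 394 genes were called higher against 73 lower. Read against that median, acot11b at 5.52 lay above it, acsl3b at 0.96 sat beside it, and acsl4a at -1.46, acsl5 at -0.75, acot11a at -0.46, acsl1b at -0.41, acsl4b at -0.14 and acsl1a at 0.18 lay below it.

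**Figure D3:**
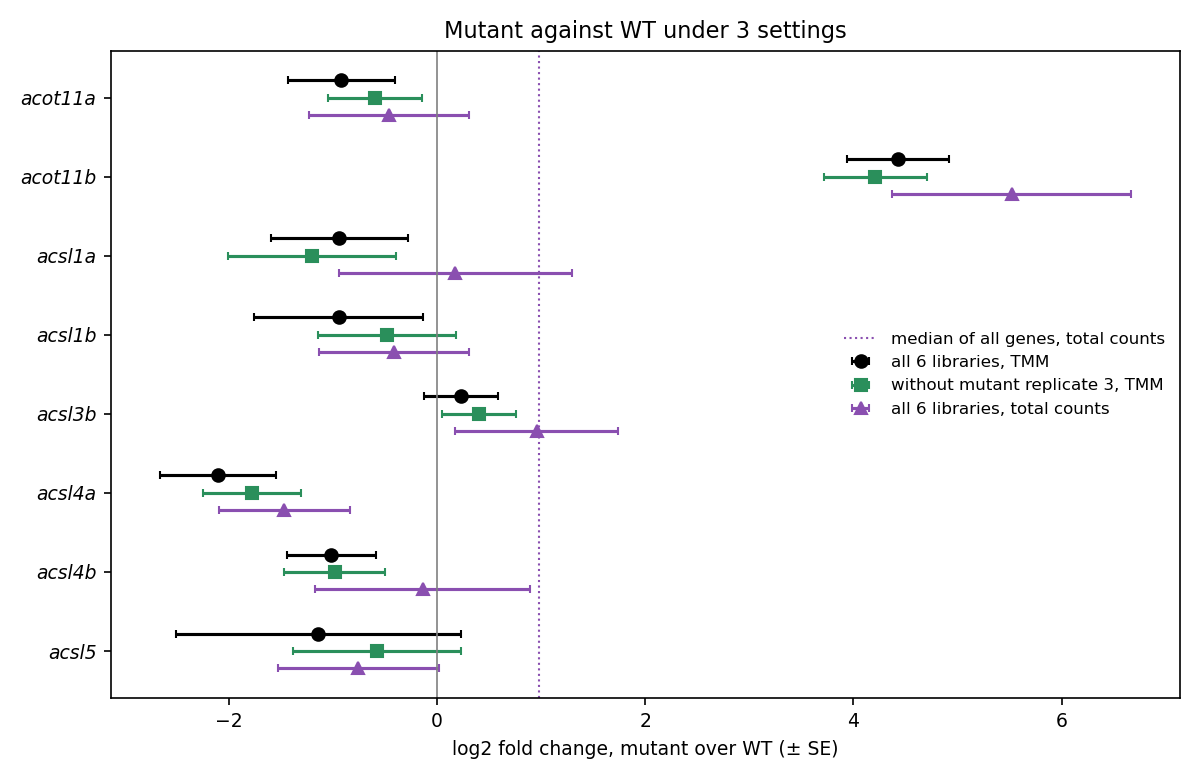
Log2 fold change of mutant over WT (± SE) for the 8 genes tested, with all 6 libraries (black circles), without mutant replicate 3 (green squares) and scaled by total counts (purple triangles); the dotted line is the median of all genes with total counts, 0.98. acot11b lies above 4 in each setting and acsl4a below -1.4, and acsl1a with total counts, at 0.18, lies below the dotted line.

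Other genes that make, bind, split or use acyl-CoA did not share one direction. Of 100 symbols in 5 lists, 87 were in the table and 76 passed the filter, with 39 positive and 37 negative log2 fold changes. Over all genes 0 of the 76 were called higher and 1 was called lower. At an unadjusted p under 0.05, 11 were higher and 8 lower, which is to be read beside 10.8% and 8.29% of all tested genes. Non-overlapping groups were found for 24 of the 76, beside the 27.8% of all genes.

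The gene called lower was fabp2, an intestinal-type fatty acid-binding protein. It stood at 76.3, 143 and 115 CPM in WT, against 16.7, 8.52 and 7.84 in mutant livers (log2 fold change -3.34 ± 0.44, edgeR adjusted p = 0.0440). The call was lost without any 1 of the WT libraries and without mutant replicate 2 or 3. The gene is itself 1 of the 9 enterocyte markers, whose summed level, given above, overlapped between the groups. Most of that sum was apoa4b.1 in every library, at 690, 495 and 464 CPM in WT, against 753, 375 and 201 in mutant livers. Of the other markers of that list, vil1, of the brush border, was at most 0.262 CPM in WT and at 1.103, 0 and 0.970 CPM in mutant replicates 1 to 3. The intestinal transcription factor cdx1b was at 0 in WT and at most 0.0998 CPM in mutant livers. The part of enterocyte transcripts in the fabp2 result was not tested. Among the 12 binding proteins tested, 7 had a positive value and the median was 0.49.

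In the list of other acyl-CoA synthetases, 6 of 13 values were positive, the median was -0.05 and 0 were called by edgeR. Before adjustment 1 was higher and 2 lower (p under 0.05), beside 10.8% and 8.29% of all tested genes. The fatty acid transport proteins slc27a1b and slc27a2a, which also activate fatty acids, had the most CPM. Their means were 232 ± 50.7 and 305 ± 69.3 CPM in WT, against 224 ± 167 and 195 ± 238 in mutant livers (SD, n = 3 each, edgeR adjusted p = 0.966 and 0.713). For both, mutant replicate 1 was above every WT library and mutant replicates 2 and 3 below every one.

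Other thioesterases had 7 positive and 7 negative values, a median of -0.04 and 0 called by edgeR. Before adjustment 5 were higher and 1 lower (p under 0.05), beside 10.8% and 8.29% of all tested genes. The most CPM were those of acot15 and acot16, at 68.4 ± 13.1 and 55.7 ± 4.97 in WT and 39.9 ± 26.8 and 33.6 ± 11.2 in mutant livers (edgeR adjusted p = 0.420 and 0.255). Both belong to a group of closely related acot genes whose reads may be shared, so single values are uncertain. The thioesterase them4, named after its value was seen, was at 0.624, 0.733 and 1.41 CPM in WT, against 2.51, 10.04 and 3.02 in mutant livers (log2 fold change 2.49 ± 0.66, edgeR adjusted p = 0.127). Non-overlapping groups were found for 7 of the 14, 5 higher and 2 lower, beside 27.8% of all tested genes. In the other lists they were found for 2 of 13 synthetases and 5 of 12 binding proteins. They were found for 4 of 18 oxidation genes and 6 of 19 genes of glycerolipid and sterol ester synthesis. No thioesterase other than acot11b was called in this fit. In 2 of 16 alternatives them4 was called. These were total counts and the DESeq2 Wald test, where 467 and 1082 genes were called.

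On the routes that consume acyl-CoA, the 18 oxidation genes had a median of 0.11 with 12 positive values, and the 19 genes of glycerolipid and sterol ester synthesis had a median of -0.13 with 7 positive values. Neither list had a gene called by edgeR in this fit. At an unadjusted p under 0.05 there was 1 higher and 1 lower in the first and 1 higher and 2 lower in the second. Of all tested genes, 10.8% were higher and 8.29% lower at that threshold. The medium-chain dehydrogenase acadm averaged 251 ± 47.8 CPM in WT, against 273 ± 56.7 in mutant livers, and the peroxisomal acyl-CoA transporter abcd3a 221 ± 15.2 and 206 ± 24.4 CPM (edgeR adjusted p = 0.881 and 0.888). The sterol acyltransferase soat1 was at 190.0 ± 42.1 and 78.1 ± 51.9 CPM and the monoacylglycerol acyltransferase mogat3a at 119 ± 12.1 and 92.4 ± 37.8 CPM (edgeR adjusted p = 0.319 and 0.615). The carnitine palmitoyltransferase cpt1b and the sterol acyltransferase soat2, named after their values were seen, had log2 fold changes of -2.70 ± 0.62 and -4.24 ± 1.097 (edgeR adjusted p = 0.105 and 0.132). The groups did not overlap for either gene, nor for 27.8% of all tested genes. Each was called in 2 of 16 alternatives. For cpt1b these were no filter beyond 1 count and the DESeq2 Wald test, where 211 and 1082 genes were called. For soat2 they were total counts, where 467 genes were called, and the DESeq2 Wald test.

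**Figure D4:**
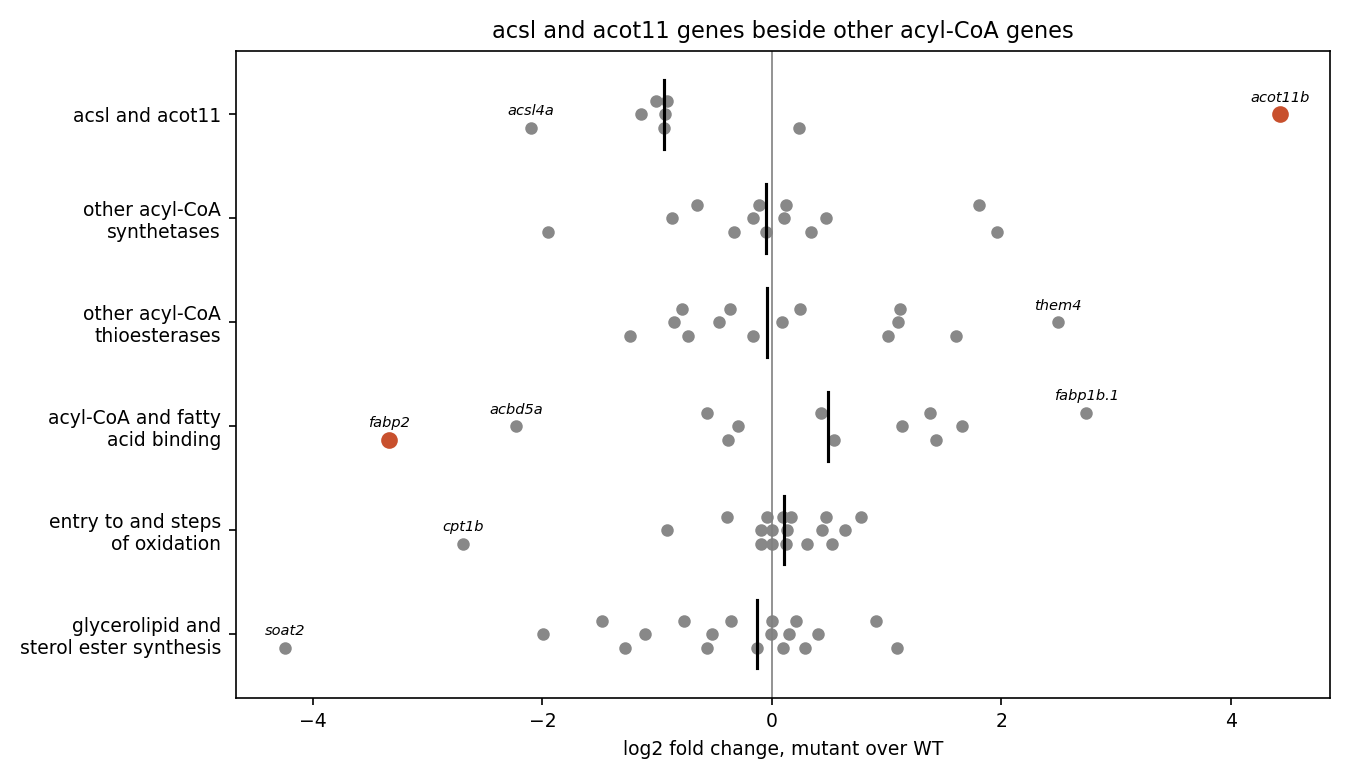
Log2 fold change of mutant over WT for the 8 acsl and acot11 genes tested and for 76 other genes of acyl-CoA metabolism in 5 lists, 1 point per gene; orange points are called by edgeR, black bars are list medians, and the vertical position within a list has no meaning. The called points are acot11b at 4.43 and fabp2 at -3.34.

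The genes whose levels ran most like acot11b over the 6 libraries, by Pearson's correlation of log2(CPM + 1), were zgc:153911 (r = 0.996), zgc:194906 (r = 0.995) and rhot2 (r = 0.994). The mitochondrial trafficking GTPase rhot2 stood at 1.54, 1.52 and 1.29 CPM in WT, against 3.003, 3.09 and 3.72 in mutant livers. For acsl4a they were slc43a1a (r = 0.995), CABZ01066312.1 (r = 0.992) and pla2g15 (r = 0.991). The amino acid transporter slc43a1a was at 45.2, 90.5 and 137.5 CPM in WT, against 10.05, 20.2 and 3.84 in mutant livers, and the lysosomal phospholipase pla2g15 at 29.2, 34.2 and 35.9 CPM and 19.8, 20.9 and 13.3 CPM. Over 6 libraries, whose scaling factors all genes share, these correlations are descriptions only. They are the highest over all tested genes, and the difference between WT and mutant livers is part of each.

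In the gene order of the RefSeq annotation of another assembly, GRCz12tu, both acot11 genes lie next to an ssbp3 gene, acot11a beside ssbp3a and acot11b beside ssbp3b. These neighbours encode single-stranded DNA-binding cofactors of transcription. The level of ssbp3b was 1.49, 2.41 and 2.47 CPM in WT, against 2.45, 4.53 and 4.65 in mutant livers (log2 fold change 0.87 ± 0.40, edgeR adjusted p = 0.285). For ssbp3a the log2 fold change was -0.79 ± 0.55 (adjusted p = 0.460). Of the 3 protein-coding genes to each side of acot11b, ssbp3b and dio1 passed the filter, and dio1, a deiodinase that activates thyroid hormone, had a log2 fold change of -0.49 ± 0.32 (edgeR adjusted p = 0.432). Neither was called.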

How the data were processed

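RNA sequencing of 6 zebrafish liver samples, 3 WT and 3 mutant, gave 1 table of whole-number counts, deposited by the authors without normalization. The submitters' processing notes name Trimmomatic 0.36, STAR 2.7, featureCounts 1.5.2 and build GRCz11, with no roles or settings. How strand and multiply aligned reads were handled is not stated, so paralogues and overlapping genes may share reads. Columns were matched to samples by name. The row with no gene name, 0.568% to 1.02% of a library, was left out.

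All genes were fitted together with edgeR 4.0.16 (R 4.3.3): filterByExpr by group, TMM, robust quasi-likelihood F test, Benjamini-Hochberg adjustment, calls at an adjusted p under 0.05. The standard error is the log2 fold change over the square root of F. The 10 members and all lists were chosen with earlier results of these data known. Named were the members, scd, from each list up to 3 called genes or otherwise the 2 with the highest CPM, and the 3 genes most correlated with the called and the most abundant member. RefSeq names matched all 10 members, and only gene order was used from it. The fit was tested on simulated counts. Replicate numbers were not used as pairs in this fit. Sequences were not used here. Alternatives were other scalings and filters, a replicate block, limma-voom (limma 3.58.1), DESeq2 1.42.0 and each library left out.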

Additional observations from a re-analysis of the deposited data

How the results depend on the processing

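The count of called genes over the table was 31 of 12889 tested. It was 467 of 12889 with total counts and 211 of 23138 with no filter beyond 1 count. It was 2 of 12889 with the replicate block and 1082 of 12889 by the DESeq2 Wald test. With 1 library left out it was between 2 and 77. Of the acsl and acot11 genes, 1 was called, and 0 were with the replicate block, 0 by limma-voom, 2 by DESeq2, which added acsl4a as lower, and 0 or 1 with 1 library left out. Of the 5 lists of other acyl-CoA genes, 1 gene was called, and 6 were with total counts (4 higher, 2 lower), 2 with no filter beyond 1 count, 0 with the replicate block, 12 by DESeq2 (6 higher, 6 lower) and 0 or 1 with 1 library left out. Each setting that called more of the acsl, acot11 or listed genes than the main fit also called more genes over the table. The log2 fold change of acot11b kept its sign in all 16 alternatives, between 4.13 and 5.52, and the gene was called in 9. That of acsl4a also kept its sign in all 16, between -2.46 and -1.46, and was called in 1. That of fabp2 did so too, between -3.79 and -2.60, with a call in 10. All these alternatives refit the same libraries that were known when the genes were chosen. They describe how the values depend on processing and are no further support. With total counts the sign turned for acsl1a (0.18), abcd3a (0.79), acot16 (0.070), dio1 (0.59), mogat3a (0.37), slc27a1b (0.41) and ssbp3a (0.48), all below the median of all genes there, 0.98. With 1 library left out the sign turned in some fits for acsl3b (-0.14 to 0.43), scd (-0.95 to 3.56), acadm (-0.041 to 0.27) and slc27a1b (-0.87 to 0.28), none of them called. The cause was not tested. By limma-voom acsl5 was at -3.06. The values of acsl2 and acsl3a without mutant replicate 3 and with total counts were chosen after seeing the data. In the 1 CPM filter acsl1a was left out and has no value.

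Whether the replicate numbers pair samples is not stated. Deviations from the group means of same-numbered libraries correlated at 0.19, -0.11 and 0.25 over genes. WT replicate 2 correlated best with mutant replicate 1, at 0.34, and WT replicates 1 and 3 with their own numbers. These correlations cannot decide on pairing, since the libraries also differed in oocyte and vitellogenin transcripts. Low counts behind acot11b in WT, acsl2 and acsl3a limit the precision of their folds.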
